A study of Homo sapiens with 24 samples.

Results

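The genes described here are 8 members of the claudin and tight junction family: the claudins CLDN3, CLDN4, CLDN6, CLDN7 and CLDN10, occludin (OCLN), the junctional adhesion molecule F11R (JAM-A) and the scaffold protein TJP1 (ZO-1). They were taken by symbol from a table of 57820 genes, and each symbol matched 1 gene. All 8 had enough reads to be tested, among 19835 tested genes. Expression was measured by mRNA sequencing in the human embryonic stem cell line HUES6, grown in FTDA medium, at 0, 3, 6 and 48 h of mesoderm induction. Induction was with 1.5 ng/ml BMP4, a growth factor of the TGF-beta family, and 1.5 µM CHIR, which blocks GSK3 and so turns on the WNT pathway. The 0 h libraries are labelled as control. At each hour there were 3 libraries labelled wild type (WT) and 3 labelled knockout (KO) for RBPMS, a gene for an RNA-binding protein. All groups therefore share 1 cell line and its medium, and the 6 groups after 0 h share both inducers. The labels do not give the number of KO clones or say whether libraries came from separate cultures, so p-values measure only the spread between these libraries.

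Tight junctions seal the space between neighbouring epithelial cells and separate the apical from the basolateral membrane. Claudins are membrane proteins that span the bilayer several times and set which ions pass between cells, occludin is a further membrane protein of the strand, and JAM-A is an adhesion molecule of the immunoglobulin family. ZO-1 binds their cytoplasmic tails and links them to actin. Human pluripotent stem cells grow as an epithelial sheet with such junctions, and cells that become mesoderm in the embryo lose epithelial contacts as they leave the primitive streak.

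Promoter windows of 3 genes are shown because the genes' levels are those on which the results below turn and because no base of them lies in an annotated exon of GENCODE 29. Each is the 250 bases before a RefSeq transcription start (GRCh38.p14), read 5′ to 3′ on the strand of the gene. The windows are chr17:7263214-7263463 (minus strand) for CLDN7, chr13:95552470-95552719 (plus strand) for CLDN10 and chr15:29969050-29969299 (minus strand) for TJP1. Capitals mark the only motif match in them.
CLDN7: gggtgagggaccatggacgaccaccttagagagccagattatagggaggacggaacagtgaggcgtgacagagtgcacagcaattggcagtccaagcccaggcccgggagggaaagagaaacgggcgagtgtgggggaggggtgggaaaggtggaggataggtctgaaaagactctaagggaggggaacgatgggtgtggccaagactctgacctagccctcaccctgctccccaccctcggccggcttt
CLDN10: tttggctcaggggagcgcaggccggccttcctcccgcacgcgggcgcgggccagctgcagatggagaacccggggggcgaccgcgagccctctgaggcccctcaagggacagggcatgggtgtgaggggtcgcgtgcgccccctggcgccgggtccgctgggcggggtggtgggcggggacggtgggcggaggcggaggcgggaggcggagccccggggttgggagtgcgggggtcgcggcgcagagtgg
TJP1: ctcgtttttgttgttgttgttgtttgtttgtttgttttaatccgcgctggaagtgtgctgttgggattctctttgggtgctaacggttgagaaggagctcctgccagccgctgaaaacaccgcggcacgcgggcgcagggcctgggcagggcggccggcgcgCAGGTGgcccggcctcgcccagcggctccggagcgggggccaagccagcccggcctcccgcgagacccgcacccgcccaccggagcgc
Motifs were searched on both strands: CACCTG, an E-box that SNAI and ZEB repressors can bind, ACCGGT, a core of grainyhead-like factor sites, and CTTTGA, a core of TCF sites. The E-box is present in 17.5% of 35116 RefSeq windows of this length, ACCGGT in 1.45% and CTTTGA in 11.2%. TJP1 has 1 E-box, starting 88 bases before the start, and the CLDN7 and CLDN10 windows shown have no match. Among the windows that are not shown, that of a second CLDN7 start has 4 E-boxes (174, 135, 20 and 9 bases before the start), those of the 2 OCLN starts have 1 each (33 and 133 bases), and those of CLDN4 (204 bases) and a further TJP1 start (17 bases) have 1 TCF core each. The CLDN3 and CLDN6 windows have none of the motifs. A match describes letters in the window and not a site in use.

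The libraries held 29896358 to 50451908 reads, and a gene with 0 reads could have had up to 0.0595 to 0.1003 CPM (CPM are reads scaled to a common library total; the bound is 3 reads and covers counting error only). At 0 h, RBPMS ranged over 121 to 155 CPM (WT) and 153 to 158 CPM (KO), so its mRNA level does not check the KO label. At 48 h the WT libraries had 95.4 to 104 CPM of RBPMS and the KO libraries 80.6 to 92.5 CPM. Stem cell genes lay at 10848 to 11606 CPM summed over 8 markers in WT at 0 h, with all 8 above 1 CPM, so the labelled cell type carries its markers. Mesoderm markers (8 genes) summed to 6.04 to 7.89 CPM in WT at 0 h and 1744 to 1987 CPM at 48 h. Of the 24 libraries, 3 stand apart from the others of their group: WT 0 h library 1, KO 3 h library 3 and WT 48 h library 3. In these, 27.0%, 22.5% and 11.5% of 11220 genes deviated by at least 0.5 (log2) from the mean of the group's other libraries. The deviation correlated across genes with the GC content of the gene at r = 0.09, 0.41 and 0.47 (a description, since genes are not replicates). With log2 exon length r was 0.002, 0.37 and -0.39. For the 8 members, results that rest on these libraries are given with and without them, and for other genes only with them. The 3 were picked from these same data for deviating, so a fit without them has a smaller spread by construction. The p-values of such a fit are given as descriptions.

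CLDN6, a claudin found in embryonic epithelia and pluripotent cells, had the highest level of the members. Per kilobase of exon, it stood at 261 ± 13.6 CPM in WT at 0 h (SD, n = 3 for this and the values that follow). F11R came next with 31.5 ± 10.3 CPM per kb, CLDN7 with 29.4 ± 1.50 and TJP1 with 15.96 ± 2.11. CLDN10 (7.87 ± 0.939) and OCLN (6.30 ± 0.339) followed, and CLDN4 (2.09 ± 0.813) and CLDN3 (1.103 ± 0.748) were lowest. Levels were divided by the annotated exon length of the gene, 4702 bases for CLDN4. A coding CLDN4 transcript spans only positions 73830863 to 73832693 of chromosome 7, and a shorter length would give CLDN4 a higher level. The places of CLDN4 here and at 48 h therefore depend on the length used. F11R and CLDN7 did not differ beyond their spread, nor did CLDN4 and CLDN3. At 48 h in WT the order was CLDN6 (216 ± 4.89 CPM per kb), CLDN7 (39.4 ± 3.45), F11R (23.8 ± 6.09), TJP1 (21.3 ± 2.40), OCLN (5.65 ± 0.343), CLDN4 (4.998 ± 0.540), CLDN10 (3.68 ± 0.251) and CLDN3 (1.28 ± 0.775). The order of F11R and TJP1, and of OCLN and CLDN4, lay within the spread there. CLDN4 and CLDN10 had changed places.

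**Figure D1:**
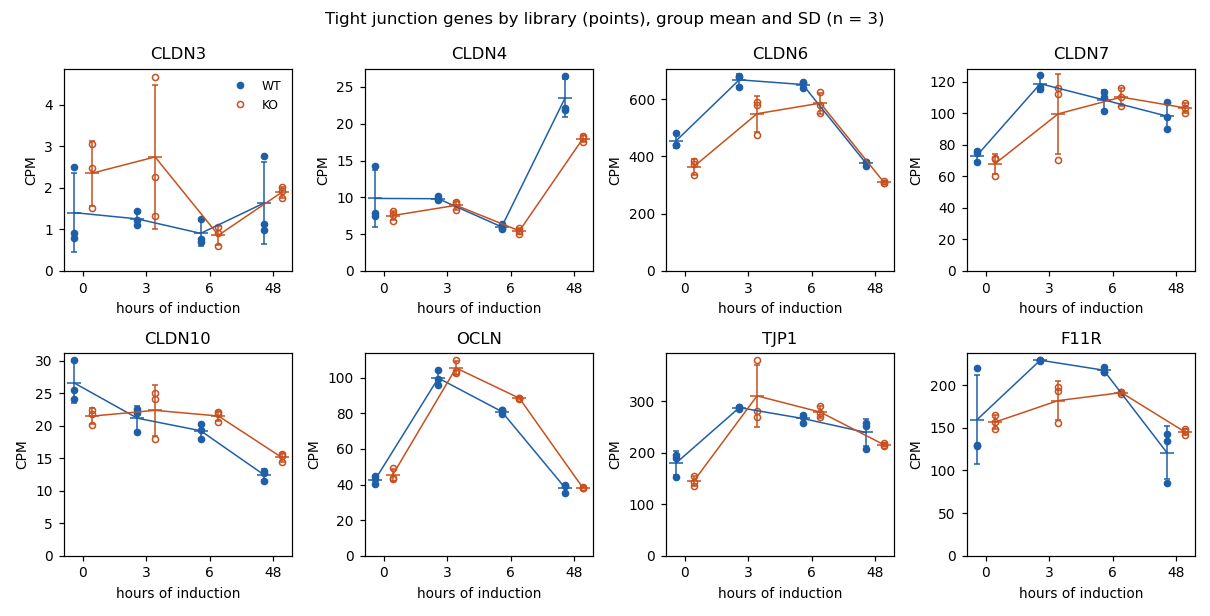
Level of each of the 8 genes in all 24 libraries (CPM, not divided by length) at 0, 3, 6 and 48 h, evenly spaced, for WT and KO; points are libraries, lines join group means and bars are SD. OCLN is highest at 3 h in both genotypes, CLDN4 at 48 h, and CLDN10 is lowest at 48 h.

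The first comparison asks how these genes changed from 0 h within each genotype. All libraries after 0 h were induced, so induction and time in culture cannot be told apart. More of them rose than fell by 3 h. In WT at 3 h, 5 of 8 members were higher than at 0 h and 0 were lower, where 55.7% of all tested genes were called (30.3% higher, 25.3% lower). A call here is an adjusted p under 0.05 from limma, with Benjamini-Hochberg adjustment over all tested genes of the comparison. The median log2 change of the 8 was 0.71, against 0.05 over all tested genes. In KO at 3 h, 4 were higher and 0 lower (65.7% of tested genes called, 34.8% higher and 30.9% lower), with a median of 0.48 against 0.03. At 6 h, 5 were higher and 2 lower in WT (62.4% called, 33.2% higher and 29.2% lower), and 5 were higher and 1 lower in KO (68.9% called, 35.5% higher and 33.4% lower). Calls were thus common over the whole transcriptome in each of these comparisons. In bulk RNA, more cells of a type and more RNA per cell cannot be told apart.

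OCLN, a membrane protein of the junctional strand, rose at 3 and 6 h in both genotypes. Its level in WT was 44.6, 40.1 and 43.0 CPM at 0 h, 104, 95.9 and 99.3 CPM at 3 h, 81.7, 79.6 and 81.7 CPM at 6 h, and 39.8, 39.1 and 35.5 CPM at 48 h. The WT libraries at 3 and 6 h all lie above those at 0 h, and those at 48 h all lie just below. In KO it was 49.1, 43.8 and 43.3 CPM at 0 h, 102, 109.9 and 104 CPM at 3 h, 87.8, 88.7 and 88.9 CPM at 6 h, and 38.6, 38.2 and 37.8 CPM at 48 h. KO followed the same course with no overlap between 0 h and any later hour. The log2 change at 3 h was 1.37 (95% interval 1.23 to 1.50; 2.58-fold; limma adjusted p = 1.18e-13) in WT and 1.31 (1.18 to 1.45; 2.48-fold; adjusted p = 9.09e-14) in KO. At 6 h it was 1.11 in WT (2.16-fold, adjusted p = 2.64e-12) and 1.11 in KO (2.15-fold, adjusted p = 1.34e-12). The rise had gone by 48 h. The change from 0 h to 48 h was -0.13 in WT (adjusted p = 0.0899) and -0.22 in KO (adjusted p = 0.00811), and the KO call is lost without KO 0 h library 1 (adjusted p = 0.0573).

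CLDN6 rose at 3 and 6 h in both genotypes and was lower than at the start at 48 h in WT. It had 481, 441 and 439 CPM in WT at 0 h, 644, 679.7 and 678 CPM at 3 h, 639, 658 and 655 CPM at 6 h, and 379.6, 366 and 382 CPM at 48 h. No WT library at 3 or 6 h reached down to the 0 h libraries, and no 48 h library reached up to them. The log2 change in WT was 0.70 at 3 h (1.63-fold, SE 0.0888, limma adjusted p = 5.99e-07), 0.71 at 6 h (1.63-fold, adjusted p = 3.94e-07) and -0.25 at 48 h (0.842-fold, adjusted p = 0.0222). The KO libraries held 333, 373 and 385 CPM at 0 h, 579.8, 591 and 476 CPM at 3 h, 580.1, 552 and 625 CPM at 6 h, and 308, 308 and 312 CPM at 48 h. Changes in KO were 0.69 at 3 h (adjusted p = 4.79e-07), 0.83 at 6 h (1.78-fold, adjusted p = 2.17e-08) and -0.20 at 48 h (adjusted p = 0.0613). In WT the call at 48 h is lost without WT 0 h library 1 (adjusted p = 0.0654) and without library 1 (0.0544) or 2 (0.0736) of WT at 48 h, and when the fit holds only these groups (0.0689). In KO the call is made under 6 of 18 alternatives: with RLE scaling factors in place of TMM (adjusted p = 0.0145), CPM as deposited (0.0249), DESeq2 (0.00391) or only the groups compared (0.000792), without the 3 libraries that stand apart (0.000373) and without KO 0 h library 1 (0.0238).

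CLDN7, a claudin of many epithelia, rose at 3 h and stayed above its starting level. Its WT libraries read 69.0, 76.0 and 74.8 CPM at 0 h, 115, 125 and 117 CPM at 3 h, 102, 114 and 111 CPM at 6 h, and 97.7, 90.0 and 107 CPM at 48 h. All WT libraries after 0 h lie above all those at 0 h. The log2 change was 0.84 at 3 h (1.79-fold, limma adjusted p = 1.66e-05), 0.75 at 6 h (1.68-fold, adjusted p = 5.07e-05) and 0.44 at 48 h (1.36-fold, adjusted p = 0.00859), and the last call is lost without WT 48 h library 3 (adjusted p = 0.0515). In KO the libraries read 60.5, 71.1 and 72.0 CPM at 0 h, 116, 112 and 70.2 CPM at 3 h, 110.3, 105 and 116 CPM at 6 h, and 100.3, 107 and 104 CPM at 48 h. The value of 70.2 CPM is that of KO 3 h library 3, which stands apart, and it alone overlaps the 0 h libraries. The change in KO was 0.62 at 3 h (1.54-fold, adjusted p = 0.000371), 0.85 at 6 h (adjusted p = 8.54e-06) and 0.64 at 48 h (adjusted p = 0.000397). Without the 3 libraries that stand apart, the change in KO at 3 h was 0.79 (adjusted p = 6.18e-11).

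TJP1, the scaffold that ties the membrane proteins to actin, rose at all 3 later hours in both genotypes. WT libraries had 152, 196 and 191 CPM at 0 h, 289, 285 and 288 CPM at 3 h, 274, 257 and 269 CPM at 6 h, and 257, 253 and 208 CPM at 48 h. In KO they had 155, 144 and 135 CPM at 0 h, 270.1, 281 and 381 CPM at 3 h, 277, 291 and 269 CPM at 6 h, and 219.6, 212 and 215 CPM at 48 h. In neither genotype did a later library overlap those at 0 h, and WT 0 h library 1 (152 CPM) and KO 3 h library 3 (381 CPM) are the values farthest from their groups. The log2 change was 0.83 (1.78-fold, limma adjusted p = 5.27e-07), 0.76 (1.70-fold, adjusted p = 1.33e-06) and 0.44 (1.36-fold, adjusted p = 0.00114) in WT at 3, 6 and 48 h. In KO it was 1.18 (2.27-fold, adjusted p = 1.21e-09), 1.09 (2.13-fold, adjusted p = 3.65e-09) and 0.61 (1.52-fold, adjusted p = 3.76e-05). The WT call at 48 h is lost with only the groups compared (adjusted p = 0.0555). Without the 3 libraries that stand apart these became 0.65, 0.59 and 0.40 in WT and 0.96, 1.04 and 0.59 in KO.

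F11R, an adhesion molecule that helps junctions assemble, rose at 3 and 6 h in WT and at 6 h in KO, with values that turn on single libraries. At 0 h its WT libraries had 219.9, 129.5 and 129 CPM, the first being the library that stands apart. Later they had 229, 230.0 and 229 CPM at 3 h, 216, 216 and 221 CPM at 6 h, and 134, 143 and 85.4 CPM at 48 h, the last again a library that stands apart. KO libraries had 148, 156 and 165 CPM at 0 h, 193, 197 and 155 CPM at 3 h, 192, 189.7 and 192 CPM at 6 h, and 146, 148 and 141 CPM at 48 h. In WT at 3 h all libraries lie above 0 h, and at 6 h WT 0 h library 1 falls among them. The log2 change in WT was 0.71 at 3 h (1.64-fold, limma adjusted p = 0.000697) and 0.68 at 6 h (adjusted p = 0.000902). At 48 h it was -0.37 (adjusted p = 0.0613), a value that passes the threshold under 7 of 18 alternatives, such as DESeq2 (adjusted p = 0.0276), but that turns to 0.09 (adjusted p = 0.106) without the 3 libraries that stand apart, of which this comparison holds WT 0 h library 1 and WT 48 h library 3. In KO it was 0.31 at 3 h (adjusted p = 0.0993) and 0.44 at 6 h (adjusted p = 0.0209), the latter lost without KO 0 h library 1 (0.0713) or with CPM as deposited (0.12). Without the 3 libraries, F11R rose by 0.91 in WT (adjusted p = 5.02e-15) and by 0.35 in KO (adjusted p = 2.04e-07) at 3 h.

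At 48 h the members had parted ways. In WT, 3 were higher than at 0 h (CLDN4, CLDN7, TJP1) and 2 lower (CLDN6, CLDN10), where 54.3% of tested genes were called (29.3% higher, 25% lower), with a median of 0.05 against 0.04 over all tested genes. In KO, 3 were higher (CLDN4, CLDN7, TJP1) and 2 lower (CLDN10, OCLN), where 54.6% were called (30.2% higher, 24.4% lower), with a median of -0.14 against 0.07. CLDN4 rose most. Its WT libraries had 14.3, 7.87 and 7.42 CPM at 0 h, 9.57, 10.1 and 9.72 CPM at 3 h, 5.89, 6.32 and 5.71 CPM at 6 h, and 22.1, 21.9 and 26.4 CPM at 48 h. KO libraries had 6.83, 7.59 and 8.13 CPM at 0 h, 9.15, 9.34 and 8.23 CPM at 3 h, 5.88, 5.43 and 4.98 CPM at 6 h, and 17.5, 18.03 and 18.4 CPM at 48 h. Every library at 48 h lies above every other library of its genotype. CLDN4, a barrier-forming claudin of simple epithelia, thus rose 2.48-fold in WT (log2 1.31, 95% interval 0.97 to 1.65, limma adjusted p = 5.12e-07) and 2.39-fold in KO (1.26, 0.92 to 1.60, adjusted p = 1.01e-06). At 6 h it was lower in WT (-0.46, adjusted p = 0.0195) and -0.31 in KO (adjusted p = 0.0979). The KO value passes under 5 of 17 alternatives: RLE factors (adjusted p = 0.0412), CPM as deposited (0.0154), DESeq2 (0.045), only the groups compared (0.00681) and without the 3 libraries that stand apart (0.000272). The WT call at 6 h is lost without WT 0 h library 1 (adjusted p = 0.225), WT 6 h library 1 (0.0521) or WT 6 h library 3 (0.0565), and with only the groups compared (0.112). At 3 h in WT the change of CLDN4 was 0.20 (adjusted p = 0.324), and without WT 0 h library 1 it passed the threshold (adjusted p = 0.000924).

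CLDN10, a claudin that forms ion-selective channels, moved the other way. Its WT libraries held 24.1, 30.2 and 25.5 CPM at 0 h, 18.97, 22.6 and 21.9 CPM at 3 h, 18.04, 19.3 and 20.3 CPM at 6 h, and 13.1, 12.8 and 11.5 CPM at 48 h. In KO they held 20.1, 21.8 and 22.5 CPM at 0 h, 24.1, 25.1 and 17.9 CPM at 3 h, 20.6, 21.8 and 22.1 CPM at 6 h, and 15.7, 14.4 and 15.3 CPM at 48 h. In WT the libraries of each later hour lie below all those at 0 h, while in KO only those at 48 h do. CLDN10 fell by 1.05 on the log2 scale in WT by 48 h (0.482-fold, limma adjusted p = 1.04e-07) and by 0.47 in KO (0.722-fold, adjusted p = 0.00191). The KO call is lost with edgeR on the deposited transcript counts summed per gene (-0.35, adjusted p = 0.117). In WT the change was -0.18 at 3 h (adjusted p = 0.2) and -0.27 at 6 h (adjusted p = 0.0485). The value at 3 h passes the threshold with CPM as deposited (-0.32, adjusted p = 0.0182) and without the 3 libraries that stand apart (-0.31, adjusted p = 0.00177). The 6 h call is lost under 6 of 18 alternatives, such as without WT 0 h library 2 (adjusted p = 0.239).

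**Figure D2:**
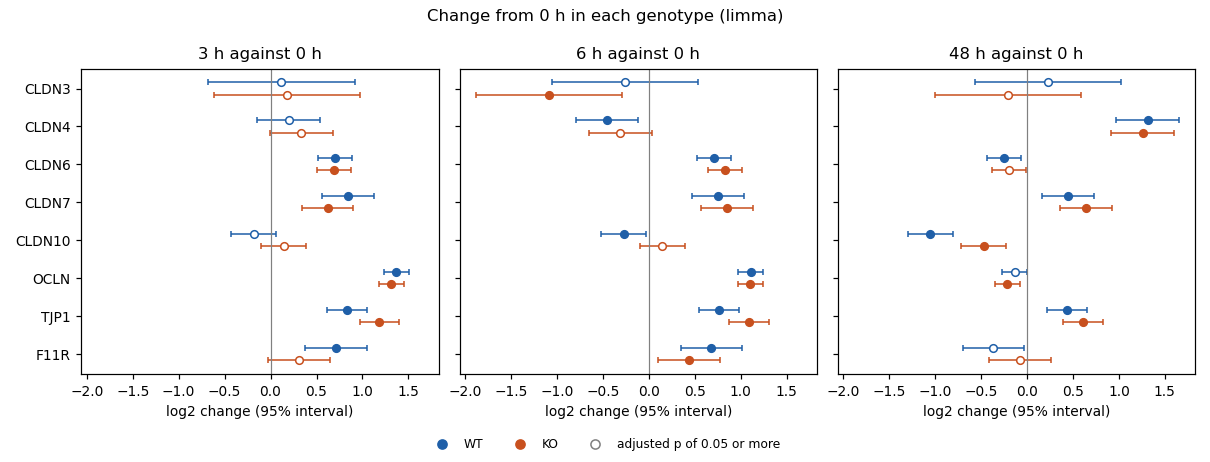
Change from 0 h of each gene at 3, 6 and 48 h in WT and KO, on the log2(CPM/TMM + 0.25) scale with 95% intervals from limma; filled points have an adjusted p under 0.05. OCLN stands at 1.37 and 1.31 at 3 h, CLDN4 at 1.31 and 1.26 at 48 h, and CLDN10 at -1.05 and -0.47 at 48 h.

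The lowest member, CLDN3, is a barrier claudin whose 24 libraries ranged from 0.602 to 4.67 CPM (18 to 216 reads). Its highest values in 3 groups were those of the libraries that stand apart: 2.502 CPM against 0.924 and 0.788 in WT at 0 h, 4.67 against 1.31 and 2.26 in KO at 3 h, and 2.77 against 0.997 and 1.14 in WT at 48 h. KO libraries had 1.52, 2.47 and 3.07 CPM at 0 h and 1.05, 0.920 and 0.602 CPM at 6 h, with no overlap. The change in KO at 6 h was -1.09 (SE 0.384, limma adjusted p = 0.0157), a call lost without KO 0 h library 3 (0.0763) or KO 6 h library 3 (0.075). In the remaining comparisons with 0 h CLDN3 did not pass the test, with SE of 0.384 throughout. It has the highest GC content of the 8 genes (69.2% of exon bases) and the shortest exon length (1274 bases).

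The second comparison asks whether the libraries labelled KO differed from WT at the same hour. CLDN6 was the only member called at 0 h in the fit of all 24 libraries, lower in KO, where 15.4% of tested genes were called (8.22% higher, 7.16% lower). Its KO libraries (333 to 385 CPM) lie below the WT libraries (439 to 481 CPM), a log2 difference of -0.29 (0.82-fold, SE 0.0888, limma adjusted p = 0.0319). The call is lost without WT 0 h library 2 (adjusted p = 0.0728), KO 0 h library 1 (0.174) or KO 0 h library 2 (0.0569), with no filter on low genes (0.0521) and with only the groups compared (0.188). At 3, 6 and 48 h limma called 0 members, where 2.73% (0.776% higher, 1.96% lower), 2.52% (0.504% higher, 2.01% lower) and 12.3% (7.59% higher, 4.73% lower) of tested genes were called. At an unadjusted p under 0.05 there were 4, 0 and 3 members, edgeR called 0, 0 and 0, and DESeq2 called 1, 0 and 1. Shares of all tested genes by these criteria are not given here, so these counts are not read as a result about the members. CLDN6 in KO lay below WT with no overlap at those hours as well: 476 to 591 against 644 to 679.7 CPM at 3 h, 552 to 625 against 639 to 658 CPM at 6 h, and 308 to 312 against 366 to 382 CPM at 48 h. The differences were -0.30 (adjusted p = 0.079), -0.16 (0.592) and -0.24 (0.0885). DESeq2 on the recovered reads called CLDN6 at 3 h (adjusted p = 0.0146) and 48 h (0.0215).

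For OCLN the interval of the difference was narrow at each hour. KO minus WT was 0.12 (95% interval -0.01 to 0.26) at 0 h, 0.07 (-0.07 to 0.20) at 3 h, 0.12 (-0.02 to 0.26) at 6 h and 0.04 (-0.09 to 0.18) at 48 h. The 2.58-fold and 2.48-fold rises at 3 h differed by -0.06 (-0.25 to 0.14) on the log2 scale. CLDN4 differed by -0.34 (-0.68 to 0.0015, limma adjusted p = 0.216) at 48 h, with the KO libraries (17.5 to 18.4 CPM) below those of WT (21.9 to 26.4 CPM). TJP1 differed by -0.27 (-0.49 to -0.06, adjusted p = 0.0804) at 0 h, where the WT library that stands apart (152 CPM) falls among the KO libraries (135 to 155 CPM) and the other WT libraries have 191 and 196 CPM. CLDN10 differed by -0.27 (adjusted p = 0.134) at 0 h and 0.32 (adjusted p = 0.0909) at 48 h, in both cases with no overlap between genotypes.

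**Figure D3:**
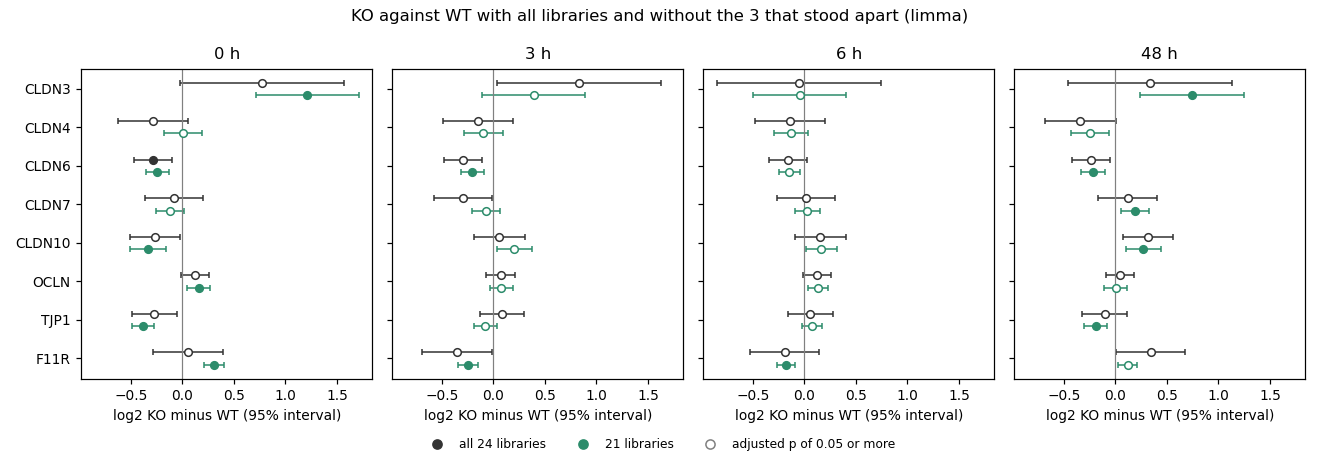
Difference KO minus WT of each gene at each hour, on the log2(CPM/TMM + 0.25) scale with 95% intervals from limma, from all 24 libraries and from the 21 without the 3 that stand apart. CLDN6 is below 0 at all 4 hours in both fits, and the intervals are narrower in the fit of 21.

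More members differed between genotypes when the 3 libraries that stand apart were left out, an alternative known from earlier work on these data. The fit of 21 libraries tested 20140 genes, and its groups WT 0 h, KO 3 h and WT 48 h held 2 libraries each. Because the libraries left out were picked for deviating, the spread fell by construction. For F11R the SE of KO minus WT at 0 h went from 0.162 to 0.0465. It called 6 members at 0 h, 2 at 3 h, 1 at 6 h and 5 at 48 h, where 46.7%, 8.87%, 11.9% and 23.7% of tested genes were called, so the share of called genes rose across the genome as well. Against 0 h it called 7 members in WT at 3 h, 7 at 6 h and 5 at 48 h, where 66.5%, 70.6% and 63.8% of tested genes were called, and 7 in KO at each hour, where 73.5%, 78.2% and 68.5% were called. At 0 h, CLDN6 (-0.24, limma adjusted p = 0.000711), CLDN10 (-0.33, 0.00163) and TJP1 (-0.39, 1.1e-06) were lower in KO. CLDN3 (1.21, adjusted p = 0.000194), OCLN (0.16, 0.018) and F11R (0.31, 4.87e-06) were higher in KO. F11R then lay lower in KO at 3 h (-0.25, adjusted p = 0.000687) and 6 h (-0.18, 0.00434), as did CLDN6 at 3 h (-0.20, 0.0185). At 48 h, CLDN6 (-0.22, adjusted p = 0.00429) and TJP1 (-0.19, 0.00771) were lower in KO. CLDN3 (0.74, adjusted p = 0.0266), CLDN7 (0.19, 0.0383) and CLDN10 (0.27, 0.0179) were higher. With only WT 0 h library 1 left out, CLDN3 (adjusted p = 0.0164), CLDN10 (0.045) and TJP1 (0.00495) passed the threshold at 0 h.

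The libraries that stand apart moved the members unequally. In WT 0 h library 1, CLDN3 lay 1.31, CLDN4 0.88 and F11R 0.77 above the mean of the group's other libraries (log2), and TJP1 lay at -0.34. In KO 3 h library 3, CLDN3 lay at 1.27 and TJP1 at 0.41, with CLDN7 at -0.75 and CLDN10 at -0.50. In WT 48 h library 3, CLDN3 lay at 1.25 and F11R at -0.63. CLDN3 was high in all 3 and OCLN deviated least, by 0.10, -0.08 and -0.09. The part that library quality plays in the differences between genotypes was not tested.

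**Figure D4:**
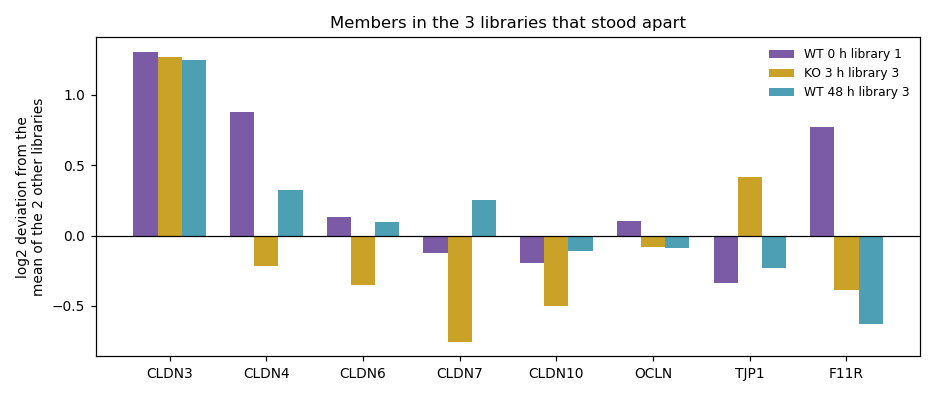
Deviation of each gene in WT 0 h library 1, KO 3 h library 3 and WT 48 h library 3 from the mean of the other 2 libraries of its group, as bars on the log2(CPM/TMM + 0.25) scale. CLDN3 is 1.25 to 1.31 above the other libraries in all 3, F11R is 0.77 above in the first and 0.63 below in the last.

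The third comparison asks whether the change from 0 h differed between genotypes. At 48 h, 1 member was called, higher, where 8% of tested genes were called (4.45% higher, 3.55% lower). That member is CLDN10, whose fall was smaller in KO: from 26.6 ± 3.17 to 12.4 ± 0.849 CPM in WT (SD, n = 3) and from 21.5 ± 1.23 to 15.1 ± 0.633 CPM in KO. The difference of the changes was 0.58 (SE 0.168, 95% interval 0.24 to 0.93, limma adjusted p = 0.0331). It is made of a lower start and a higher end in KO, with no overlap between genotypes at either hour. Of 24 alternatives 9 ended the call, among them no filter on low genes (adjusted p = 0.0541) and leaving out WT 0 h library 2 (0.108), KO 0 h library 1 (0.0892), KO 0 h library 2 (0.0543), WT 48 h library 3 (0.0672), KO 48 h library 1 (0.0761), KO 48 h library 2 (0.0564) or KO 48 h library 3 (0.0664). The call also ended with edgeR on the deposited transcript counts summed per gene, where the value was 0.30 (adjusted p = 0.619). Without the 3 libraries that stand apart the value was 0.60 (limma adjusted p = 0.00019).

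At 3 and 6 h the interaction called 0 members with limma, where 9.07% (3.72% higher, 5.35% lower) and 8.49% (3.06% higher, 5.42% lower) of tested genes were called. There were 1 and 2 members at an unadjusted p under 0.05, and edgeR and DESeq2 called 0 at both hours. The matching shares of all tested genes are again not given, so these counts are not read as a result. Without WT 0 h library 1, the rise of TJP1 was larger in KO at 3 h (adjusted p = 0.0132) and 6 h (0.0187), and the rise of F11R was smaller in KO (0.00843 and 0.0433). CLDN10 also passed at 6 h (0.0378), and without KO 3 h library 3 at 3 h (0.0274). In the fit of 21 libraries, 3, 4 and 4 members were called at 3, 6 and 48 h, where 37.9%, 39.9% and 38.3% of tested genes were called. The differences of the changes there were 0.31, 0.46 and 0.19 for TJP1, -0.56, -0.49 and -0.19 for F11R, and 0.54, 0.50 and 0.60 for CLDN10. CLDN3 at 6 h (-1.26) and CLDN7 at 48 h (0.31) were the others.

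The members lie on 7 chromosomes (hg38, GENCODE 29). CLDN3 (ENSG00000165215.5, chr7:73768997-73770270, minus strand) and CLDN4 (ENSG00000189143.8, chr7:73799542-73832693, plus strand) are neighbours on chromosome 7. The others are CLDN6 (ENSG00000184697.6, chr16:3014712-3020071, minus), CLDN7 (ENSG00000181885.14, chr17:7259903-7263983, minus), CLDN10 (ENSG00000134873.5, chr13:95433604-95579759, plus), OCLN (ENSG00000197822.6, chr5:69492292-69558104, plus), TJP1 (ENSG00000104067.12, chr15:29699367-29968865, minus) and F11R (ENSG00000158769.13, chr1:160995211-161021348, minus). The gene TNFRSF12A, on the opposite strand, overlaps the CLDN6 locus over 1627 bases and had 13.3 to 102 CPM. DZIP1, also on the opposite strand, overlaps that of CLDN10 over 1558 bases. It had 31.4 to 54.0 CPM, above the 11.5 to 30.2 CPM of CLDN10. Whether counting used the strand is not given in the sources used here, so reads from both genes of such a pair cannot be told apart there. F11R shares 23392 bases of its locus with AL591806.3 on the same strand, which had 0.0216 to 0.636 CPM. The near copy OCLNP1 of OCLN had 0 to 0.0479 CPM.

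For CLDN10 the deposited transcript counts hold 3 transcripts, and 1 of them had 0 counts throughout. The transcript that starts at position 95552725 of chromosome 13, next to the window printed for CLDN10, had 545, 527 and 466 counts in WT at 0 h. The one that starts upstream at position 95433604 had 0 counts in all 24 libraries. A count of 0 does not show that a start is unused. Of 3 CLDN6 transcripts, 2 also had 0 counts throughout, although the gene had 308 to 680 CPM. The transcript counts of CLDN10 came to 40.5% to 65.0% of its gene reads, and those of CLDN3 to 107% to 145%. The deposited tables were therefore not made from the same assignment of reads, and these percentages are not shares of 1 set of reads. For the other 6 members they came to 0% to 3.08% of gene reads, too few to describe which start was used.

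Among 10815 other genes at 5 CPM or more, the pattern of OCLN over the 24 libraries was most like that of LAMP5 (Pearson r = 0.993), PAPPA (0.988) and CD82 (0.987). For CLDN6 the nearest were G6PC3 (0.969), GOT1 and BCAP31, and for CLDN7 HNRNPA1 (0.965), MRPS18A and MYL12A. For TJP1 they were ZSCAN29 (0.980), TTPAL and AP1G1, and for F11R CLIC4 (0.948), CNBP and UBE2Q2. CLDN4 lay nearest to GGCX (0.958), BCKDK and PLIN3, CLDN10 to RND2 (0.937), PPA1 and TERF1, and CLDN3 to UNC45A (0.865), UNC93B1 and BMP7. Between members, r was highest for CLDN6 and OCLN (0.902) and lowest for CLDN4 and CLDN10 (-0.782). These are descriptions over the same 24 libraries, which share depth, hour and genotype between genes.

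Other genes of the junction were taken from fixed lists. Their counts stand beside those over all tested genes, of which 30.3% rose and 25.3% fell in WT at 3 h, 33.2% and 29.2% at 6 h and 29.3% and 25% at 48 h (in KO 34.8% and 30.9%, 35.5% and 33.4%, and 30.2% and 24.4%). Of 19 other claudins, 9 passed the filter on low reads. In WT 3 of the 9 rose and 2 fell at 3 h, 1 rose and 3 fell at 6 h, and 4 rose and 3 fell at 48 h, where 55.7%, 62.4% and 54.3% of tested genes were called in either direction. In KO 3 rose and 3 fell, 0 rose and 4 fell, and 3 rose and 4 fell. CLDN12, an atypical claudin chosen after its values were seen, had 110.4, 89.1 and 102 CPM in WT at 0 h and 71.8, 65.7 and 66.0 CPM at 3 h, a fall at the hour when CLDN6 and CLDN7 rose (-0.41, limma adjusted p = 0.00639). CLDN11, known from myelin and testis, had 5.76, 4.04 and 3.78 CPM in WT at 0 h and 10.6, 8.99 and 8.45 CPM at 48 h (1.04, adjusted p = 1.07e-05; in KO 0.39, adjusted p = 0.0462). CLDN1, a barrier claudin of skin, rose at 3 h in WT (0.98, adjusted p = 2.42e-05) and was lower at 48 h (-0.81 in WT, adjusted p = 0.000229; -1.50 in KO, adjusted p = 6.96e-08). Among claudins at low levels, CLDN9 fell by 0.95 in KO at 48 h (adjusted p = 7.9e-05), and CLDN18, a claudin of stomach and lung, had 0 to 0.0272 CPM in WT at 0 h and 0.227 to 0.904 CPM at 48 h. CLDN16, a claudin of the renal tubule, was the only other claudin called between genotypes at 48 h, with 0.523, 0.258 and 0.477 CPM in WT against 0.106, 0.0611 and 0.0676 CPM in KO (limma adjusted p = 0.000419).

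The further membrane proteins of the junction (13 genes, all tested) moved in both directions. In WT 6 rose and 3 fell at 3 h, 7 rose and 4 fell at 6 h, and 2 rose and 7 fell at 48 h, with median changes of 0.15, 0.31 and -0.37, against 0.05, 0.04 and 0.04 over all tested genes, of which 55.7%, 62.4% and 54.3% were called. In KO the counts were 5 and 2, 6 and 2, and 2 and 6. IGSF5 (JAM4) had 10.4, 4.42 and 3.75 CPM in WT at 0 h and 0.897, 0.723 and 0.568 CPM at 48 h (-2.55, limma adjusted p = 1.21e-08). JAM2 (-1.17 in WT, adjusted p = 6.62e-07; -1.32 in KO, adjusted p = 1.22e-07) and the tricellular protein ILDR1 (-1.48 in WT, adjusted p = 8.38e-07; -1.20 in KO, adjusted p = 1.43e-05) were lower at 48 h too. CLMP, an adhesion molecule related to CAR, rose in KO at 48 h (0.98, adjusted p = 1.76e-06). Chosen after their values were seen, LSR, the receptor that organises tricellular junctions, had 68.9, 70.0 and 60.2 CPM in WT at 0 h and 121, 142 and 125 CPM at 6 h (1.15, adjusted p = 2.72e-09), and ESAM had 1.42, 0.624 and 0.353 CPM at 0 h and 4.58, 3.86 and 3.87 CPM at 3 h (2.29, adjusted p = 3.16e-08). Between genotypes, CLMP (-0.50, adjusted p = 0.0139) and IGSF5 (-0.77, adjusted p = 0.0403) were lower in KO at 0 h, and MARVELD3, a relative of occludin (0.56, adjusted p = 0.00341), and ILDR2 (0.39, adjusted p = 0.0412) were higher at 48 h. IGSF5 had its highest value in WT 0 h library 1, which stands apart.

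Scaffold and polarity proteins (28 genes, all tested) moved both ways at each hour. In WT 10 rose and 11 fell at 3 h, 9 rose and 12 fell at 6 h, and 10 rose and 9 fell at 48 h, with medians of 0.02, -0.06 and 0.04, against 0.05, 0.04 and 0.04 over all tested genes (55.7%, 62.4% and 54.3% called). The counts in KO were 12 and 11, 8 and 13, and 7 and 8. TJP3, a paralog of TJP1, fell where TJP1 rose: TJP3 had 20.6, 10.8 and 13.1 CPM in WT at 0 h and 4.04, 3.67 and 5.91 CPM at 48 h (-1.60, limma adjusted p = 5.66e-07), and in KO its change at 48 h was -1.59 (adjusted p = 6.55e-07). CGNL1, a paralog of cingulin that binds ZO proteins, had 179, 185 and 225 CPM in WT at 0 h and 43.9, 42.8 and 33.6 CPM at 48 h (-2.26, adjusted p = 4.46e-15), and 251, 228 and 223 CPM in KO at 0 h and 88.1, 90.4 and 98.9 CPM at 48 h (-1.31, adjusted p = 1.26e-10). At 48 h the KO libraries thus lay above WT without overlap (1.25, adjusted p = 4.2e-09). AMOTL1, an angiomotin that binds YAP and junction proteins, rose at 48 h (1.65 in WT, adjusted p = 4.55e-13; 2.40 in KO, adjusted p = 8.6e-16) from a lower start in KO (-0.80 at 0 h, adjusted p = 3.99e-06). AMOTL2 rose in WT (1.40, adjusted p = 3.47e-08) and lay lower in KO at 48 h (-0.95, adjusted p = 7.2e-05). In all, 3 scaffolds were higher and 2 lower in KO at 0 h, MAGI2 (0.57, adjusted p = 0.000869) among the former and PARD6G (-0.50, adjusted p = 0.0151) among the latter, and 5 were higher and 2 lower at 48 h, PARD6A (0.72, adjusted p = 0.0126) among the former, where 15.4% and 12.3% of tested genes were called.

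**Figure D5:**
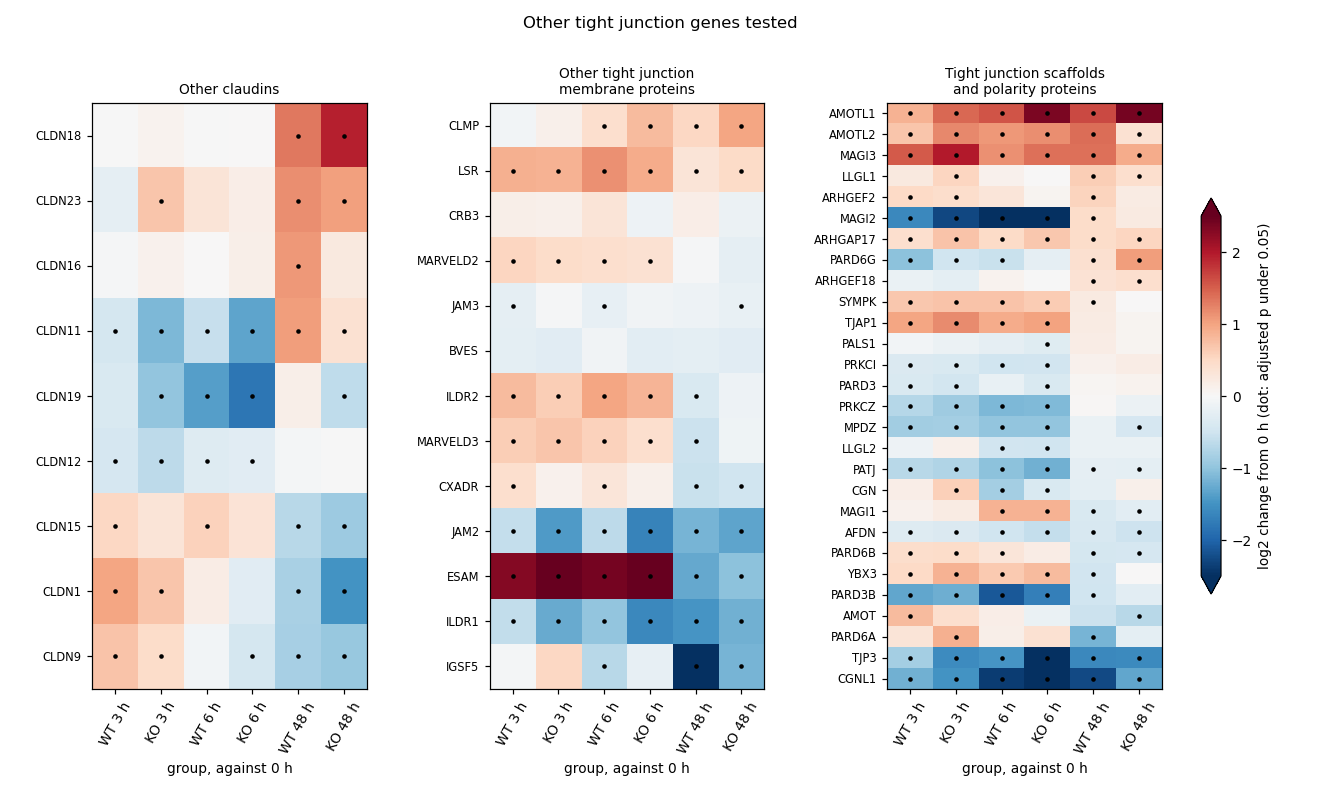
Change from 0 h at 3, 6 and 48 h in WT and KO (colour, log2(CPM/TMM + 0.25) scale, saturated at 2.5 in either direction) of the 9 tested other claudins, 13 further membrane proteins and 28 scaffold and polarity proteins; a dot marks an adjusted p under 0.05 from limma. CGNL1 falls at all 3 hours in both genotypes, and AMOTL1 rises at all 3.

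Of 18 adherens junction and desmosome genes, all tested, 10 rose and 1 fell in WT at 3 h, 8 rose and 2 fell at 6 h, and 10 rose and 6 fell at 48 h, with medians of 0.38, 0.17 and 0.30. Over all tested genes the medians were 0.05, 0.04 and 0.04, with 55.7%, 62.4% and 54.3% called. The KO counts were 10 and 2, 7 and 4, and 7 and 5. CDH2 (N-cadherin, the cadherin of mesodermal and neural cells) had 25.2, 62.7 and 46.2 CPM in WT at 0 h and 425, 479 and 321 CPM at 48 h (3.28, limma adjusted p = 1.51e-12), and 222 to 258 CPM in KO at 48 h (3.34, adjusted p = 1.55e-12). It was lower in KO at 0 h (-0.75, adjusted p = 0.0106) and 48 h (-0.69, adjusted p = 0.018). At 0 h desmoplakin (DSP) was higher in KO (0.43, adjusted p = 0.0183) and NECTIN4 lower (-0.80, adjusted p = 0.0226). The desmosome genes PKP2 (-1.31, adjusted p = 3.95e-11) and DSC2 (1.43, adjusted p = 1.41e-08) moved in opposite directions in WT by 48 h, and the catenin CTNNA2 fell in KO (-1.92, adjusted p = 4.73e-08). PKP2 (0.40, adjusted p = 0.00455) and EPCAM, an epithelial adhesion molecule that binds CLDN7 (0.50, adjusted p = 0.00459), were higher in KO at 48 h. EPCAM had 161 to 200.04 CPM in WT and 242 to 261 CPM in KO at that hour. CDH1 (E-cadherin, chosen after its values were seen) had 289 to 476 CPM in WT at 0 h and 427 to 549.9 CPM at 48 h (0.50, adjusted p = 0.00153).

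Of 18 transcription regulators of epithelial genes, 17 were tested. In WT 10 rose and 2 fell at 3 h, 9 rose and 3 fell at 6 h, and 7 rose and 6 fell at 48 h, with medians of 0.58, 0.28 and 0.12, against 0.05, 0.04 and 0.04 over all tested genes (55.7%, 62.4% and 54.3% called). In KO 12 rose and 2 fell, 6 rose and 3 fell, and 7 rose and 5 fell. Between genotypes at 48 h, 3 of the 17 were higher and 4 lower in KO (12.3% of tested genes called), with a median of 0.14 against 0.01 over all tested genes. The 3 with the smallest adjusted p, each known to repress epithelial genes, were lower: ZEB2 had 6.08, 9.11 and 5.89 CPM in WT against 1.59, 0.998 and 1.06 CPM in KO (-2.26, limma adjusted p = 7.7e-08), SNAI1 20.4, 23.7 and 27.4 CPM against 12.2, 10.8 and 13.9 CPM (-0.90, adjusted p = 4.75e-05), and SNAI2 0.772, 0.904 and 1.23 CPM against 0.159, 0.244 and 0.248 CPM (-1.33, adjusted p = 8.52e-05). In none of these did the genotypes overlap at 48 h. They were picked by adjusted p in this same comparison, so the lack of overlap adds no support. Values of the 3 regulators called higher in KO are not given here. ZEB2 had 0.0431, 0.0250 and 0.0272 CPM in WT at 0 h, 7.99, 9.24 and 8.41 CPM at 3 h, and 0.938, 0.614 and 0.805 CPM at 6 h. Whether these repressors act on the members was not tested. At 0 h, the epithelial activator ELF3 (1.104, adjusted p = 9.94e-06) and the splicing regulator ESRP1 (0.50, adjusted p = 0.000306) were higher in KO and GRHL1 lower (-0.88, adjusted p = 0.00346). KLF5, a factor of epithelial progenitors, rose by 48 h (2.12 in WT, adjusted p = 2.15e-13; 1.17 in KO, adjusted p = 8.8e-09), and ELF3 fell in KO (-2.65, adjusted p = 1.93e-13). Chosen after its values were seen, GRHL3, a grainyhead-like factor of surface epithelia, had 0.625, 2.82 and 2.47 CPM in WT at 0 h, 18.01, 16.9 and 15.6 CPM at 3 h and 0.473, 0.516 and 0.273 CPM at 48 h.

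Markers of other cells moved over the hours as well. Definitive endoderm markers (5 genes) summed to 1.77 to 2.55 CPM in WT at 0 h, 125 to 146 CPM in WT at 48 h and 197 to 225 CPM in KO at 48 h. Mesoderm markers at 48 h summed to 1744 to 1987 CPM in WT and 1094 to 1240 CPM in KO, and stem cell markers to 5172 to 5528 CPM and 6966 to 7123 CPM. Amnion and trophoblast markers (10 genes, keratins KRT8 and KRT18 among them) summed to 502 to 603 CPM in WT at 0 h and 834 to 898 CPM at 3 h. Later sums in WT were 934 to 1014 CPM (6 h) and 815 to 963 CPM (48 h), so the mean sum was highest at 6 h. In WT, 6 of the 10 lay under 1 CPM in every library of the 0 h group. This count was 4 in the 3 h and 6 h groups and 7 in the 48 h group. In the WT groups of 0 h and 48 h, 1 of the 10 was at 0 in all 3 libraries. The sums therefore rest mostly on the other markers. Neuroectoderm markers (4 genes) summed to 29.6 to 38.6 CPM at 0 h and 104 to 129 CPM at 48 h in WT, nearly all of it OTX2. Fibroblast markers (7 genes) summed to 491 to 869 CPM in WT and 633 to 662 CPM in KO at 0 h, with 2 of 7 at 0 in every library of each group. At 3 h they summed to 664 to 697 CPM in WT and 459 to 464 CPM in KO, and at 6 h to 595 to 649.9 CPM and 439 to 462 CPM, with no overlap between genotypes. Of the 4 tested markers, 1 (3 h) and 2 (6 h) were called lower in KO, as were 1.96% and 2.01% of all tested genes. At 0 h, 2 of the 4 were called higher in KO and 0 lower, where 8.22% of tested genes were higher. These sums leave out most of the list, since 3 of 7 lay under 1 CPM in each group at 3 and 6 h. At 48 h the sums were 419 to 422 CPM and 433 to 469.8 CPM. Endothelial markers (4 genes) summed to 345 to 438 CPM in WT at 0 h, 161 to 166 CPM at 3 h, 96.4 to 103 CPM at 6 h and 248 to 335 CPM at 48 h, and in KO to 449 to 505 CPM, 86.8 to 129.7 CPM, 59.6 to 63.4 CPM and 364 to 389 CPM. They were thus lowest at 6 h in both genotypes, and CLDN5, the claudin that defines endothelial junctions, did not exceed 0.184 CPM in any library. The part of a changing mix of cells in the members' changes was not tested.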

How the data were processed

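Libraries were made with the illumina TruSeq stranded mRNA kit and mapped to hg38, per the labels and the submitters' processing notes, which also name DESeq2. For aligner and annotation nothing was given in the sources used here. A deposited gene table holds CPM, which the authors scaled to each library. Its header is shifted by 1 cell, and with this undone 24 of 24 libraries matched their own transcript counts over 543 genes (0 as written). Values were whole multiples of 1 read within 0.1 read (100%), so reads were recovered. The transcript counts deposited by the authors are raw and do not sum to the gene reads.

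CPM was divided by TMM factors (edgeR 4.0.16). Genes passed filterByExpr (10 reads, 15 in total). Then limma 3.58.1 (R 4.3.3) with a trend was fitted on log2(CPM/TMM + 0.25), a scale that understates changes of low genes, over 8 groups with no covariate. It gave 13 comparisons with two-sided tests. Members, lists and alternatives were chosen with earlier results of these data known. Named genes were the 8 members, the 3 genes most like each, and the called list genes with the smallest adjusted p (at most 3 per list) for KO vs WT at 0 and 48 h and for 48 h against 0 h. The result of 1 gene of a list is not reported here. Symbols came from GENCODE 29 (90.5% of identifiers). Python 3.11, numpy 2.4.6, pandas 2.3.3 and matplotlib 3.10.9 made tables and figures.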

Additional observations from a re-analysis of the deposited data

Results flagged for a closer look

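The change of CLDN10 from 0 h to 48 h differed between genotypes by 0.58 on the log2 scale (KO minus WT, limma adjusted p = 0.0331 over all tested genes), with -1.05 in WT and -0.47 in KO. Its 3 WT libraries at 48 h (11.5 to 13.1 CPM) lay below the 3 KO libraries (14.4 to 15.7 CPM), and at 0 h the order was the reverse. Of 24 alternatives 9 ended the call, such as edgeR on transcript counts summed per gene (0.30, adjusted p = 0.619). Groups of 3 libraries were too small for a test of single outlying libraries.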

How the results depend on the processing

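Counts of called members moved by over 1.5 times as follows (all 24 libraries, limma, first). KO vs WT at 0 h: 1, with 0 without a filter, 0 with only the groups compared, 0 with transcript counts, 6 without the 3 libraries that stand apart, and 0 to 4 when leaving out 1 library. KO vs WT at 3 h: 0, with 1 by DESeq2, 2 without the 3 libraries and 0 to 1 leaving out 1. KO vs WT at 6 h: 0, with 2 with only the groups compared and 1 without the 3 libraries. KO vs WT at 48 h: 0, with 1 for CPM as deposited, 1 by DESeq2, 2 with only the groups compared and 5 without the 3 libraries. WT at 6 h: 7, with 3 for transcript counts. WT at 48 h: 5, with 3 with only the groups compared and 2 for transcript counts. KO at 3 h: 4, with 7 without the 3 libraries. KO at 48 h: 5, with 1 for transcript counts. Interactions: 0 at 3 h, with 3 without the 3 libraries and 0 to 2 leaving out 1; 0 at 6 h, with 4 and 0 to 3; 1 at 48 h, with 0 without a filter, 0 for transcript counts, 4 without the 3 libraries and 0 to 1 leaving out 1. Leaving out 1 library gave 5 to 6 members in WT at 3 and 6 h, 4 to 6 in WT at 48 h, 4 to 5 in KO at 3 h, 5 to 6 in KO at 6 h and 5 in KO at 48 h. The cause was not tested, except that fewer samples or other reads enter by construction.

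Apart from leaving out single libraries, 38 of 1222 member values changed sign, 20 with transcript counts and 11 without the 3 libraries that stand apart, and 42 of 768 did when 1 library was left out. In 3 of the 38 the value was called in 1 of the fits compared: TJP1 in WT at 6 h (-0.26) and OCLN in KO at 48 h (0.33) with transcript counts, and the F11R interaction at 48 h (-0.19) without the 3 libraries. All time calls of TJP1 were lost with transcript counts, of which TJP1 had only 19 to 45 per library (0.148% to 0.587% of its gene reads). OCLN had 10 to 60 of them per library (0.570% to 1.55%). Another 19 lost and 52 gained a call, and 726 of 768 values kept theirs when 1 library was left out. Calls by edgeR on recovered reads, with pseudocounts of 0.1 and 1, and with a replicate block were the same in 104 of 104. A filter of 5 CPM left CLDN3 untested. Same-numbered libraries deviated together (r over 0.1) in 0 of 30 pairs (r from -0.18 to 0.06), and 4 of 24 libraries correlated best with their own number. No pairing by number was seen, but a weak one could be hidden by the libraries that stand apart. With the replicate block the counts were the same in each comparison, such as 1 (KO vs WT at 0 h) and 5 (WT at 3 h). CPM as deposited moved the median of all genes by -0.12 in WT at 3 h, -0.15 in WT at 6 h and -0.12 in KO at 6 h, and the share of calls that were higher from 53.4% to 43.0% (KO vs WT at 0 h), 54.5% to 43.1% (WT at 3 h) and 53.2% to 41.3% (WT at 6 h). Depth limits CLDN3 most, with 18 to 216 reads.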
